A study of Mus musculus with 38 samples.

Results

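Vegfa, Vegfc, Pgf, Angpt1, Fgf2, Fgf7, Hgf and Igf1 encode secreted angiogenic and stromal growth factors. The 8 genes were taken by symbol from the gene identifiers of both deposited count tables, which hold 45706 genes each. All 8 were present once in each table, and all 8 passed the filter on low counts in both. The RNA came from primary mouse embryonic fibroblasts of the C57BL/6 strain at the embryo stage. Cells homozygous for a knock-in allele of Rela that the labels call RelA-TA-KI were set against wild-type (WT) cells. The title of the series speaks of transactivation by RelA; the labels do not describe the protein change. All cells were kept overnight in low serum before stimulation, the untreated ones included. In the TNF table, 20 libraries cover RelA-TA-KI and WT cells, left untreated or given 10 ng/ml TNF for 0.5, 1, 3 or 8 h, with 2 libraries per group. A second table of 18 libraries covers RelA-TA-KI and WT cells given 100 ng/ml LPS or 20 ug/ml Poly(I:C) for the same times, with an untreated library of each genotype and 1 library per genotype and condition. The labels do not say whether replicates came from separate embryos or cultures, so p-values in the TNF table measure only the spread between these libraries. In RelA-TA-KI that spread may be technical, while the 2 WT replicates differed in sex-linked RNA. Total counts per library lay between 6715022 and 9590932.

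VEGF-A acts on the receptors FLT1 and KDR and drives blood vessel growth. VEGF-C acts on FLT4 and KDR and drives lymphatic vessel growth, while placental growth factor, the product of Pgf, acts on FLT1. Angiopoietin-1 binds the endothelial receptor TEK and stabilises vessels. Fibroblasts are a known source of FGF7 and HGF, which act on epithelial cells through FGFR2 and MET, and of FGF2 and IGF-1, which act on many cell types. TNF, LPS and double-stranded RNA such as Poly(I:C) all activate NF-κB, of which RelA is a subunit.

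The promoters of 3 of the genes are shown because their RNA responded to TNF early (Fgf7), late (Vegfc) or with a difference between genotypes (Vegfa). RefSeq windows of 250 bases before an annotated start, on the GRCm38.p6 build, were at hand for 7 of the 8 genes, in 10 windows. They were searched on both strands for TGANTCA (AP-1), ACGTG (hypoxia response core), GCGNGGGCG (Egr) and the κB consensus. Capitals mark a match.
Vegfa, chr17:46032378-46032627, minus strand: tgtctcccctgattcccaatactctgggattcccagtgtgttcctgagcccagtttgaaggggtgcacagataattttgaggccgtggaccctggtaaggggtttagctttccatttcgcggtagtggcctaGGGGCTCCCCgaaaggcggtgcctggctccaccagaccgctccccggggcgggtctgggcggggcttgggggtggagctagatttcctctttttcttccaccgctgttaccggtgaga
Vegfc, chr8:54077282-54077531, plus strand: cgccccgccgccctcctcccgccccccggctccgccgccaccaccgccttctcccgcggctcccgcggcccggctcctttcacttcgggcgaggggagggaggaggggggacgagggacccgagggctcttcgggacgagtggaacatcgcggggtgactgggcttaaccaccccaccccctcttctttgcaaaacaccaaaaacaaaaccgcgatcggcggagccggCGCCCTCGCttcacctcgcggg
Fgf7, chr2:126034408-126034657, plus strand: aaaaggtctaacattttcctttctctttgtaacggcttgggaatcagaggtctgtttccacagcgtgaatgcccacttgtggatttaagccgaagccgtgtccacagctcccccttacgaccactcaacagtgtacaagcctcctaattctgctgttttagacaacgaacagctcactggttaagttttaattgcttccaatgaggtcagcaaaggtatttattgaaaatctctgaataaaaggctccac
The Vegfa window holds a κB consensus match that begins 118 bases before the start, and 3.9% of 32851 promoter windows hold such a match. The Vegfc window holds an Egr match on its minus strand, as 4.7% of promoter windows do. The Fgf7 window holds none of the 4 motifs in these letters. Other windows held an Egr match (Fgf2), an AP-1 match (Igf1, 6.75% of promoter windows) or a hypoxia core match (a second Vegfa window, 16.6% of promoter windows). Each of these other windows overlaps an annotated exon of its own gene. A match describes the sequence and does not mark a bound site.

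In untreated cells of the TNF table, the genes differed widely in abundance. On the scale of TMM-normalised CPM (counts scaled to a common library total) per kilobase of exon, the median level over 4 untreated libraries was 25.4 for Igf1 and 22.7 for Vegfa. Their ranges, 17.4 to 34.2 and 19.6 to 25.8, overlapped. Fgf7 (10.7), Angpt1 (10.5), Fgf2 (8.48) and Vegfc (8.26) followed, and the ranges of neighbours in this order overlapped. Pgf (2.87) and Hgf (2.76) were lowest and also overlapped. The untreated libraries of the other table had more Igf1 per kilobase (57.4 in RelA-TA-KI and 46.0 in WT) and less Vegfa (10.8 in RelA-TA-KI and 10.4 in WT). The 2 tables were normalised separately and no test was made between them. Without a replicate block, no gene of the 8 passed the test between untreated RelA-TA-KI and WT cells of the TNF table, where 0.00722% of all tested genes did.

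TNF changed members of the group in both directions, mostly at 3 and 8 h, and Vegfc and Fgf7 rose in both genotypes. In RelA-TA-KI cells 12 of 32 tests (8 genes at 4 times) passed an adjusted p of 0.05 in edgeR's quasi-likelihood test with Benjamini-Hochberg adjustment, 8 higher and 4 lower than untreated. In WT cells 7 of 32 passed, 5 higher and 2 lower. Of the 8 genes, 0, 2, 5 and 5 passed at 0.5, 1, 3 and 8 h in RelA-TA-KI cells, where 1.07%, 3.28%, 19% and 42.1% of all tested genes did. In WT cells 0, 1, 3 and 3 passed, where 1.04%, 3.81%, 15.7% and 20.8% of all tested genes did. By direction, 2, 3 and 3 genes were higher at 1, 3 and 8 h in RelA-TA-KI cells, beside 2%, 10.9% and 21.6% of all tested genes, and 2 were lower at 3 h and at 8 h, beside 8.08% and 20.5%. In WT cells 1, 2 and 2 genes were higher, beside 2.57%, 9.32% and 12% of all tested genes, and 1 was lower at 3 h and at 8 h, beside 6.36% and 8.8%. Libraries with the same replicate number deviated together within a genotype, and with a replicate block within genotype 18 RelA-TA-KI and 14 WT responses passed. The share of all tested genes that passed with this block was not counted.

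**Figure D1:**
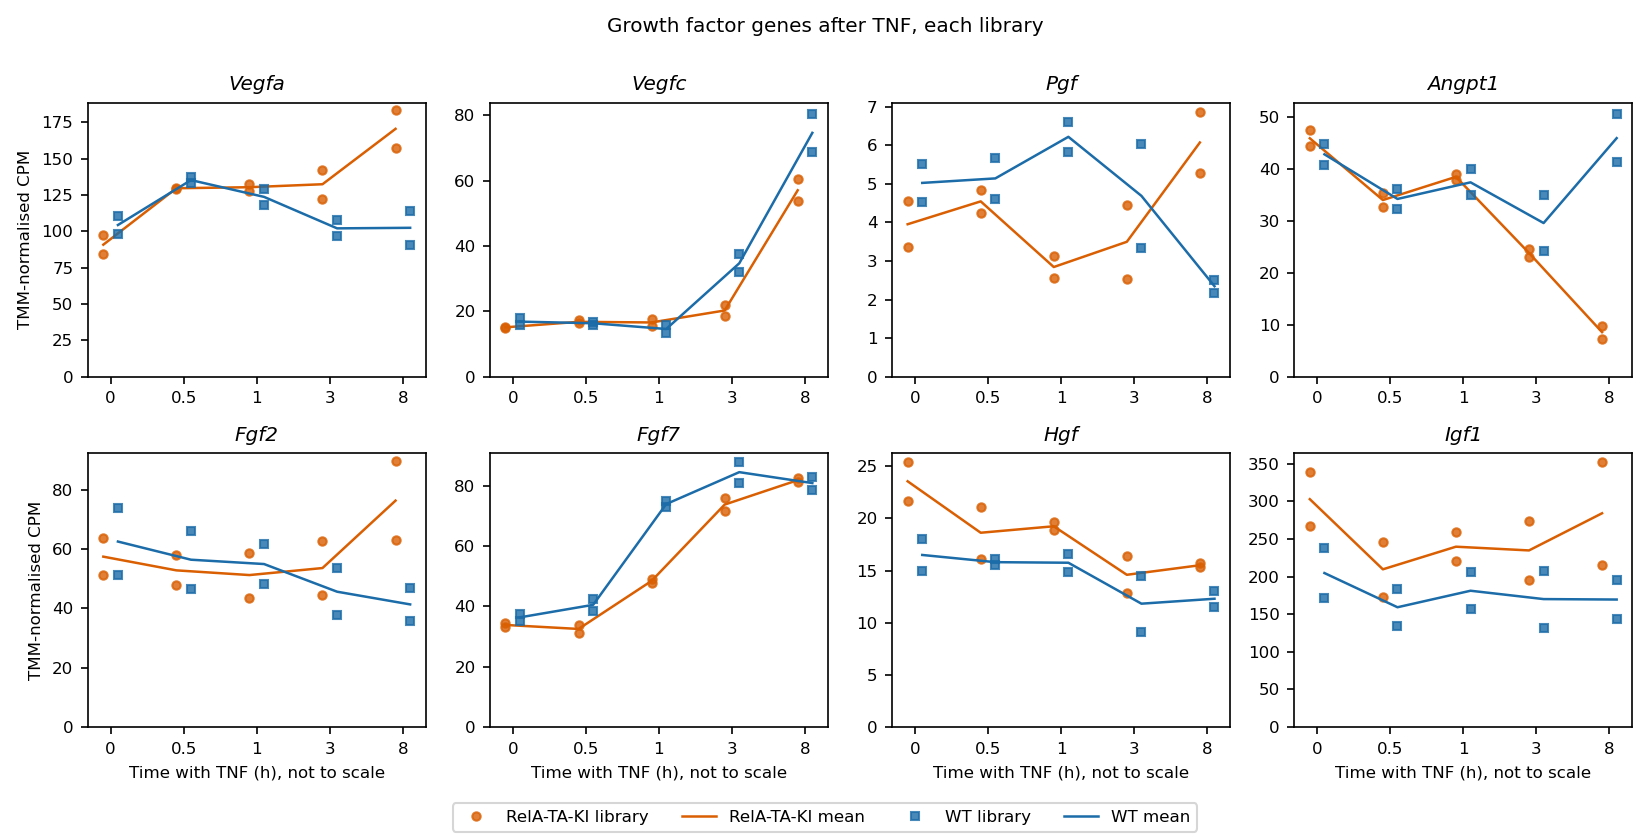
TMM-normalised CPM (vertical axes, from 0) of the 8 genes in untreated cells (0 h) and after 0.5, 1, 3 and 8 h of TNF. Points are single libraries, lines join the means of 2 libraries, circles and orange mark RelA-TA-KI and squares and blue mark WT. At 8 h the RelA-TA-KI libraries lie above both WT libraries for Vegfa, Pgf, Fgf2, Hgf and Igf1, of which Hgf and Igf1 did not pass the test, and below both for Angpt1 and Vegfc.

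Vegfa, which encodes the main angiogenic VEGF, was raised by TNF in RelA-TA-KI cells at 1, 3 and 8 h. The 2 RelA-TA-KI libraries had 97.4 and 84.2 CPM untreated, 130.1 and 129 CPM at 0.5 h, 128 and 133 CPM at 1 h, 142 and 122 CPM at 3 h, and 183 and 158 CPM at 8 h. The WT libraries had 111 and 97.8 CPM untreated, 133 and 137 CPM at 0.5 h, 129 and 118 CPM at 1 h, 108 and 96.5 CPM at 3 h, and 114 and 90.9 CPM at 8 h. All RelA-TA-KI libraries with TNF lay above both untreated ones, while WT libraries at 3 and 8 h lay in and around the untreated range. In edgeR's test the log2 change at 8 h was 0.91 ± 0.12 (SE, n = 2 per group; adjusted p = 3e-05) in RelA-TA-KI cells. In WT cells it was -0.03 ± 0.12 (adjusted p = 0.91; 95% interval -0.28 to 0.22). The 2 responses differed by 0.93 ± 0.16 (adjusted p = 0.0047), and Vegfa was 1.66 times as high in RelA-TA-KI as in WT cells at 8 h (adjusted p = 0.00074).

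The earlier rise of Vegfa was smaller and less firmly placed. At 1 h the log2 change in RelA-TA-KI cells was 0.52 ± 0.12 (adjusted p = 0.023) and at 3 h 0.54 ± 0.12 (adjusted p = 0.0058). At 1 h the call was lost without any of 3 libraries, RelA-TA-KI untreated replicate 2 (adjusted p = 0.27) or either 1 h replicate (0.12 and 0.11), and, at the threshold, with library totals in place of TMM factors (0.05). At 3 h it was lost without RelA-TA-KI untreated replicate 2 (0.088) or 3 h replicate 1 (0.077). At 0.5 h the change was 0.51 in RelA-TA-KI (adjusted p = 0.052) and 0.38 in WT cells (adjusted p = 0.23). The replicate block within genotype called both 0.5 h changes, at 0.52 (adjusted p = 0.00028) and 0.38 (0.0092). The same block called the difference of the Vegfa responses at 3 h, 0.57 (0.0043; adjusted p = 0.16 without it).

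Vegfc, whose product is the main lymphatic growth factor, showed the largest rise of the 8 genes after TNF in both genotypes, and it came late. RelA-TA-KI libraries had 15.2 and 14.95 CPM untreated, 17.7 and 15.4 CPM at 1 h, 21.9 and 18.6 CPM at 3 h, and 60.5 and 53.6 CPM at 8 h. WT libraries had 17.8 and 15.8 CPM untreated, 15.8 and 13.4 CPM at 1 h, 37.5 and 31.9 CPM at 3 h, and 80.4 and 68.7 CPM at 8 h. At 3 and 8 h both RelA-TA-KI libraries lay below both WT libraries. At 8 h edgeR gave a log2 change of 1.92 ± 0.13 (3.77-fold; adjusted p = 8.2e-08) in RelA-TA-KI and 2.15 ± 0.13 (4.45-fold; adjusted p = 2.9e-08) in WT cells, and the 2 responses differed by -0.24 ± 0.18 (adjusted p = 0.47; 95% interval -0.62 to 0.15).

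At 3 h the Vegfc change was 0.42 ± 0.13 (adjusted p = 0.041) in RelA-TA-KI and 1.04 ± 0.13 (adjusted p = 7.1e-05) in WT cells. The RelA-TA-KI level was then 0.585 times the WT level (adjusted p = 0.0023, or 0.11 when only the 2 groups were fitted). At 3 h the difference of the responses was -0.62 (adjusted p = 0.19), and -0.62 (0.009) with the replicate block within genotype. The RelA-TA-KI call at 3 h was lost without either untreated replicate (0.11 and 0.19) or 3 h replicate 1 (0.28), and, narrowly, without either 0.5 h replicate of either genotype (0.051 to 0.052). It was also lost with DESeq2 (0.10), with only the 2 groups fitted (0.079) and with library totals alone (0.094). At 8 h Vegfc was 0.764 times as high in RelA-TA-KI as in WT (adjusted p = 0.033), a call lost without RelA-TA-KI 8 h replicate 2 or WT 8 h replicate 1 (both 0.24), with DESeq2 (0.087) and with only the 2 groups fitted (0.11).

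Pgf, which encodes placental growth factor, was the least abundant of the 8 genes by CPM and moved apart in the 2 genotypes at 8 h. The RelA-TA-KI libraries had 4.55 and 3.36 CPM untreated, 3.13 and 2.55 CPM at 1 h, and 5.28 and 6.87 CPM at 8 h. The WT libraries had 5.51 and 4.54 CPM untreated, 6.62 and 5.82 CPM at 1 h, and 2.18 and 2.51 CPM at 8 h. At 8 h both RelA-TA-KI libraries lay above both WT libraries, and the WT values rest on 17 and 20 reads. Pgf fell by 1.08 ± 0.33 on the log2 scale in WT cells (edgeR adjusted p = 0.031), while the RelA-TA-KI change was 0.62 ± 0.30 (adjusted p = 0.10).

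The difference of the Pgf responses was 1.71 ± 0.44 (adjusted p = 0.034), and the 8 h level was 2.59 times as high in RelA-TA-KI as in WT (adjusted p = 0.011). These calls rest on few libraries. The WT fall was lost without any of the 4 libraries it compares (adjusted p 0.067 to 0.15), with DESeq2 (0.064) and with only the 2 groups fitted (0.069). The difference of the responses was lost without RelA-TA-KI untreated replicate 2 (0.13), RelA-TA-KI 8 h replicate 2 (0.12), WT untreated replicate 1 (0.12) or either WT 8 h replicate (0.09 and 0.087), and with only the groups compared (0.058). The 8 h contrast was lost without RelA-TA-KI 8 h replicate 2 (0.10) or WT 8 h replicate 1 (0.077), and with only the 2 groups fitted (0.053).

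Angpt1, which encodes the TEK ligand angiopoietin-1, fell at 8 h of TNF in RelA-TA-KI cells, and the interaction with genotype was the largest of the 8 genes. RelA-TA-KI libraries had 47.4 and 44.3 CPM untreated, 35.4 and 32.6 CPM at 0.5 h, 37.9 and 39.0 CPM at 1 h, 23.0 and 24.6 CPM at 3 h, and 9.80 and 7.32 CPM at 8 h. WT libraries had 40.8 and 44.8 CPM untreated, 32.3 and 36.1 CPM at 0.5 h, 34.9 and 39.9 CPM at 1 h, 24.2 and 34.9 CPM at 3 h, and 41.2 and 50.5 CPM at 8 h. Both genotypes were lower at 3 h than untreated, and at 8 h the WT libraries stood at or above the lower untreated value while the RelA-TA-KI libraries lay far below every WT library. The log2 change at 8 h was -2.43 ± 0.18 (edgeR adjusted p = 2e-07) in RelA-TA-KI and 0.10 ± 0.15 (adjusted p = 0.71; 95% interval -0.22 to 0.42) in WT cells. Its responses differed by -2.52 ± 0.23 (95% interval -3.02 to -2.03; adjusted p = 5.4e-05).

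At 3 h Angpt1 changed by -0.94 ± 0.16 (adjusted p = 0.0011) in RelA-TA-KI and -0.52 ± 0.15 (adjusted p = 0.033) in WT cells. The WT call at 3 h was lost without WT untreated replicate 1 (0.064) or 2 (0.23), without WT 3 h replicate 1 (0.30), which left -0.28, and, at the threshold, without RelA-TA-KI 1 h replicate 1 (0.05); without WT 3 h replicate 2 the change was -0.82 (0.0063). With only the 2 groups fitted it was also lost (0.19). At 0.5 h the change in RelA-TA-KI cells was -0.43 (adjusted p = 0.20), and it passed with the replicate block within genotype (0.0031). In the annotation 6.65% of the Angpt1 exon length overlaps Gm17473 on the opposite strand, which had at most 0.605 CPM in the TNF table. In RNA from mixed cultures such as these, fewer cells that express a gene and less RNA per cell cannot be told apart.

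**Figure D2:**
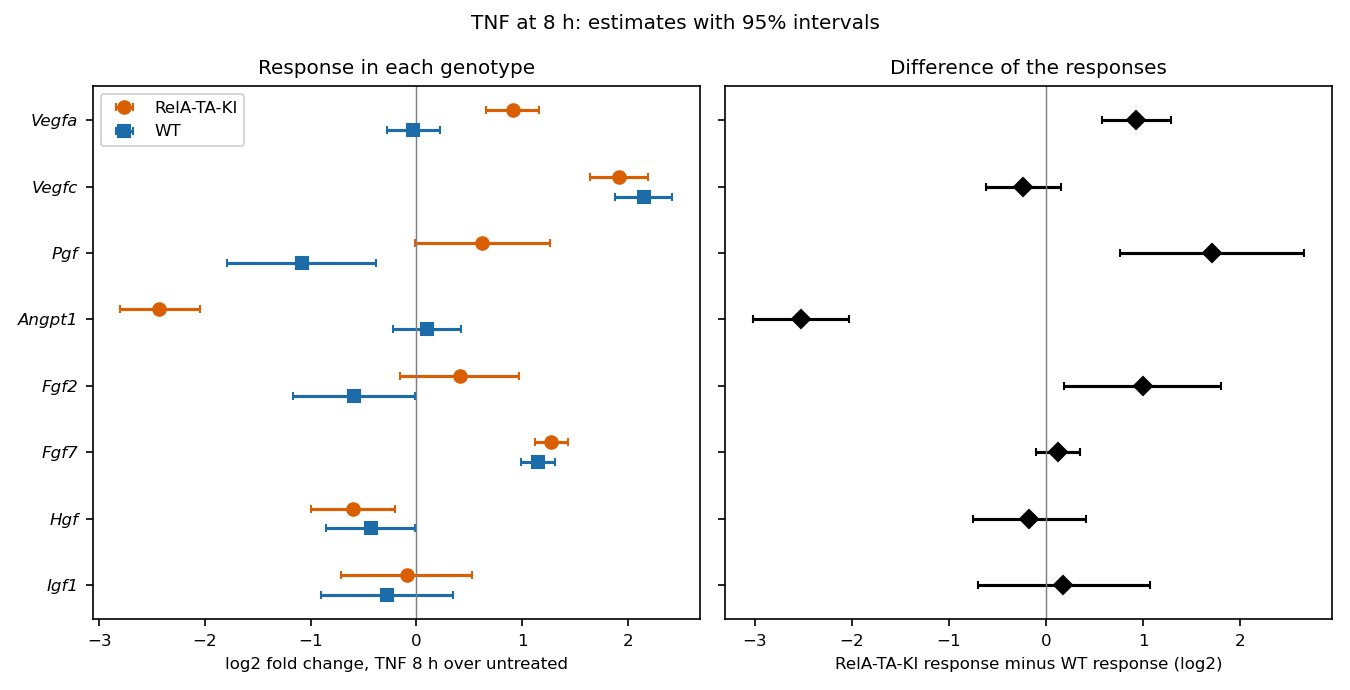
Left, log2 fold change of each gene at 8 h of TNF over untreated in RelA-TA-KI (orange circles) and WT (blue squares); right, the RelA-TA-KI response minus the WT response (black diamonds). Bars are 95% intervals from edgeR's quasi-likelihood fit with 2 libraries per group. The right-hand interval excludes 0 for Vegfa, Pgf, Angpt1 and Fgf2, of which Fgf2 did not pass after adjustment over all genes (adjusted p = 0.13).

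Across the 8 genes, 3 of 32 differences of TNF responses passed, all at 8 h (Vegfa and Pgf higher, Angpt1 lower in RelA-TA-KI), and 8 passed with the replicate block within genotype. Without the block, the share of all tested genes that passed was 0.0506%, 0.311%, 0.932% and 6.87% at 0.5, 1, 3 and 8 h. At 8 h 3.45% were higher and 3.42% lower. With the block the share was not counted. For RelA-TA-KI against WT at a single time, 7 of 40 tests passed, 1 at 1 h, 1 at 3 h and 5 at 8 h. There the shares of all tested genes were 0.195%, 0.91%, 3.19% and 15.9% at 0.5, 1, 3 and 8 h. The calls at 1 h (Fgf7) and 3 h (Vegfc) were lower in RelA-TA-KI, as were 0.852% and 2.4% of all tested genes. At 8 h 3 genes were higher and 2 lower, beside 7.75% and 8.11% of all tested genes. The summed CPM of 15 macrophage marker genes was also higher at that time, 2390 and 4533 in RelA-TA-KI and 1437 and 2292 in WT libraries, where untreated libraries had 1606 and 2705 in RelA-TA-KI and 1207 and 1880 in WT. At 8 h 2 of the 15 markers were higher and 0 lower in RelA-TA-KI than in WT, with a median log2 difference of 1.09. Their part in the genotype differences of the 8 genes was not tested.

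Fgf2, which encodes basic FGF, a broad mitogen for endothelial and stromal cells, was higher in RelA-TA-KI than in WT cells at 8 h of TNF. RelA-TA-KI libraries had 63.8 and 51.1 CPM untreated, 62.9 and 44.4 CPM at 3 h, and 89.6 and 63.1 CPM at 8 h. WT libraries had 73.8 and 51.2 CPM untreated, 53.5 and 37.7 CPM at 3 h, and 47.0 and 35.7 CPM at 8 h. The replicate 1 library had more Fgf2 than the replicate 2 library in 10 of 10 groups. At 8 h both RelA-TA-KI libraries lay above both WT libraries, and the level was 1.84 times as high (log2 0.88 ± 0.27; edgeR adjusted p = 0.038). That call was lost without RelA-TA-KI 8 h replicate 1 (0.24) or either WT 8 h replicate (0.068 and 0.21), and with only the 2 groups fitted (0.072).

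Neither Fgf2 response to TNF passed without the block, at 0.41 ± 0.26 (adjusted p = 0.23) in RelA-TA-KI and -0.59 ± 0.27 (adjusted p = 0.15) in WT cells. With the replicate block within genotype, Fgf2 rose in RelA-TA-KI cells at 8 h (0.40, adjusted p = 6.9e-05) and fell in WT cells at 3 h (-0.45, 0.00014) and 8 h (-0.59, 5.6e-06). Between genotypes the responses then differed by 0.99 at 8 h (1.5e-06) and 0.35 at 3 h (0.047). Fgf2 exons overlap Nudt6 on the opposite strand over 9.44% of their length. Nudt6 had at most 2.95 CPM in the TNF table, and the strand setting of the counting is not given in the sources used here.

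Fgf7, the keratinocyte growth factor that fibroblasts supply to epithelia, rose from 1 h on in both genotypes, with the smallest standard errors of the 8 genes. RelA-TA-KI libraries had 34.4 and 33.3 CPM untreated, 31.1 and 33.9 CPM at 0.5 h, 47.9 and 49.0 CPM at 1 h, 71.4 and 76.0 CPM at 3 h, and 81.1 and 82.5 CPM at 8 h. WT libraries had 35.1 and 37.6 CPM untreated, 42.4 and 38.6 CPM at 0.5 h, 72.9 and 74.9 CPM at 1 h, 87.9 and 81.0 CPM at 3 h, and 83.0 and 78.7 CPM at 8 h. At 1 h both RelA-TA-KI libraries lay below both WT libraries, and at 8 h the genotypes overlapped. The 1 h log2 change was 0.52 ± 0.07 (edgeR adjusted p = 0.0013) in RelA-TA-KI and 1.02 ± 0.07 (adjusted p = 3.8e-07) in WT cells.

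The RelA-TA-KI level of Fgf7 at 1 h was 0.656 times the WT level (log2 -0.61 ± 0.07; adjusted p = 0.00019). The difference of the 1 h responses was -0.50 ± 0.10 (adjusted p = 0.083), and it passed with the replicate block within genotype (0.029). At 8 h the change was 1.27 ± 0.07 (2.42-fold; adjusted p = 2.6e-08) in RelA-TA-KI and 1.15 ± 0.07 (2.22-fold; adjusted p = 7.9e-08) in WT cells. Their difference was 0.12 ± 0.10 (adjusted p = 0.52; 95% interval -0.10 to 0.35). None of the 6 responses of Fgf7 called at 1, 3 and 8 h was lost when any single library was left out.

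Hgf, which encodes the MET ligand hepatocyte growth factor, fell in RelA-TA-KI cells at 3 and 8 h of TNF. RelA-TA-KI libraries had 25.4 and 21.7 CPM untreated, 12.8 and 16.4 CPM at 3 h, and 15.7 and 15.3 CPM at 8 h. WT libraries had 14.9 and 18.1 CPM untreated, 9.14 and 14.5 CPM at 3 h, and 11.5 and 13.1 CPM at 8 h. In each genotype both libraries at 3 h and at 8 h lay below both untreated ones. The log2 change was -0.69 ± 0.19 (edgeR adjusted p = 0.021) at 3 h and -0.60 ± 0.19 (adjusted p = 0.018) at 8 h in RelA-TA-KI cells, against -0.47 ± 0.20 (adjusted p = 0.13) and -0.43 ± 0.20 (adjusted p = 0.14) in WT cells. The differences of the responses were -0.22 ± 0.27 (adjusted p = 0.86) and -0.17 ± 0.27 (adjusted p = 0.76).

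The Hgf call at 3 h was lost without either RelA-TA-KI untreated replicate (adjusted p 0.13 and 0.053) or 3 h replicate 1 (0.19). The call at 8 h was lost without untreated replicate 1 (0.13) or either 8 h replicate (0.066 and 0.093). With the replicate block within genotype the WT fall at 3 h passed (-0.46, 0.045). Untreated Hgf was 1.42 times as high in RelA-TA-KI as in WT, which did not pass (adjusted p = 0.52).

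Igf1, the growth factor that signals through IGF1R, was the most abundant of the 8 by CPM and did not pass any TNF test without a block. RelA-TA-KI libraries had 267 and 339 CPM untreated, 173 and 246 CPM at 0.5 h, 220.4 and 259 CPM at 1 h, 195 and 274 CPM at 3 h, and 215 and 353 CPM at 8 h. WT libraries had 172 and 237 CPM untreated, 134 and 184 CPM at 0.5 h, 157 and 206 CPM at 1 h, 132 and 208 CPM at 3 h, and 144 and 195 CPM at 8 h. The replicate 2 library had more Igf1 than the replicate 1 library in 10 of 10 groups. With the replicate block within genotype, Igf1 fell in RelA-TA-KI cells at 0.5, 1 and 3 h by 0.54 (edgeR adjusted p = 0.0002), 0.33 (0.0093) and 0.38 (0.0015) on the log2 scale. In WT cells it fell at 0.5, 3 and 8 h by 0.36 (0.019), 0.27 (0.022) and 0.27 (0.02).

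Macrophages express Igf1, and their markers were higher in the same replicate as Igf1 in each of the 10 TNF-table groups. The summed CPM of the 15 macrophage marker genes, of which none was at 0 in any library, ran from 1235 to 4533 in RelA-TA-KI and from 1101 to 2292 in WT libraries of the TNF table. In the other table it ran from 3690 to 6165 in RelA-TA-KI and from 4535 to 6083 in WT libraries. Of the 2 untreated TNF-table replicates, the one with more Igf1 also had the higher marker sum in each genotype, 2705 against 1606 in RelA-TA-KI and 1880 against 1207 in WT. Lyz2, which encodes the lysozyme of macrophages, was between 386 and 1682 CPM in RelA-TA-KI and between 431 and 952 CPM in WT libraries of the TNF table. The part of these cells in the Igf1 values was not tested. The summed level of 10 fibroblast markers stayed between 31030 and 78500 CPM over all 38 libraries, and those of 8 epithelial genes at or under 102 CPM.

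LPS and Poly(I:C), the ligands of TLR4 and TLR3, were each measured in 1 library per genotype and time. The responses were therefore fitted as shared by both genotypes, with the spread taken from how the genotype difference varied over 9 conditions. For LPS 9 of 32 tests passed, 8 higher and 1 lower, of which 0, 0, 3 and 6 were at 0.5, 1, 3 and 8 h, where 0.138%, 0.952%, 44.7% and 62.7% of all tested genes passed. The 3 higher genes at 3 h stand beside 22.5% of all tested genes, and the 5 higher and 1 lower at 8 h beside 30.4% and 32.3%. Each call rests on 1 condition of 2 libraries, so leaving out a condition removes its calls (3 of 9 without 3 h, 6 of 9 without 8 h of LPS) and no call at a remaining time was lost. For Poly(I:C) 7 of 32 passed, 5 higher and 2 lower, all at 8 h. The shares of all tested genes were 0.00727%, 0%, 18.5% and 49.8% at 0.5, 1, 3 and 8 h, and at 8 h 24.9% were higher and 24.9% lower. Without the 8 h condition none of the 7 calls can be made, and leaving out any other condition lost none. With library totals in place of TMM factors, the median of all genes moved to -0.49 at 3 h and -0.76 at 8 h of LPS, and to -0.25 and -0.53 with Poly(I:C). Changes in these cultures are therefore relative to the bulk of genes.

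**Figure D3:**
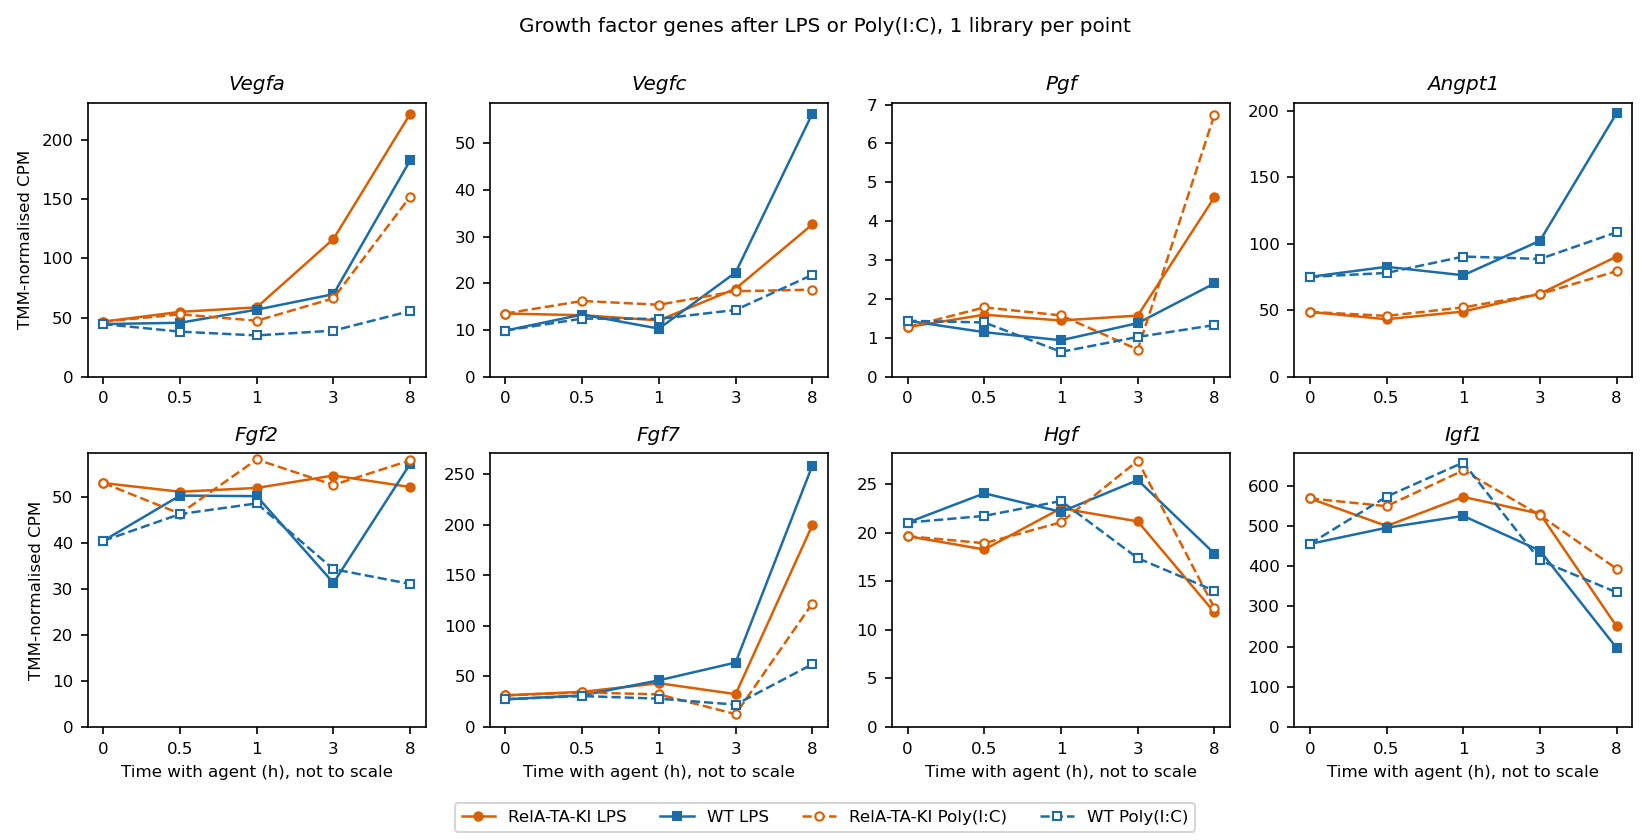
TMM-normalised CPM (vertical axes, from 0) of the 8 genes in untreated cells (0 h) and after 0.5, 1, 3 and 8 h of LPS (filled markers, solid lines) or Poly(I:C) (open markers, dashed lines). Each point is 1 library, with RelA-TA-KI in orange and WT in blue. Fgf7 and Vegfa reach their highest values at 8 h of LPS in both genotypes, and Angpt1 lies lower in RelA-TA-KI than in WT at every time.

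Fgf7 rose most of the 8 genes with LPS. It had 31.4 CPM untreated and 34.8, 43.3, 32.6 and 200 CPM at 0.5, 1, 3 and 8 h of LPS in RelA-TA-KI cells, against 27.5 CPM untreated and 31.3, 46.2, 63.8 and 258 CPM in WT cells. With Poly(I:C) at 3 and 8 h it had 12.8 and 122 CPM in RelA-TA-KI and 22.2 and 62.1 CPM in WT cells. Both genotypes thus stood lower than untreated at 3 h of Poly(I:C) and far higher at 8 h. The shared log2 change at 8 h was 2.96 ± 0.35 (7.76-fold; edgeR adjusted p = 2.1e-05) with LPS and 1.65 ± 0.35 (3.14-fold; adjusted p = 0.0021) with Poly(I:C). At 3 h of Poly(I:C) it was -0.76 ± 0.37 (adjusted p = 0.18), and it passed, at a fall of 1.00 (0.035), with library totals alone.

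Vegfa had 46.5 CPM untreated and 54.8, 58.6, 116 and 222 CPM at 0.5, 1, 3 and 8 h of LPS in RelA-TA-KI cells, against 44.5 CPM untreated and 45.6, 56.7, 69.8 and 183 CPM in WT cells. With Poly(I:C) it had 52.8, 47.3, 66.2 and 152 CPM in RelA-TA-KI and 38.0, 34.9, 38.9 and 55.5 CPM in WT cells. The RelA-TA-KI library stood above the WT library at every time with either agent. The shared change at 8 h was 2.14 ± 0.27 (edgeR adjusted p = 3e-05) with LPS and 1.09 ± 0.27 (adjusted p = 0.0053) with Poly(I:C), and at 3 h of LPS it was 0.98 ± 0.26 (0.01), or 0.50 (0.059) with library totals alone. At 8 h of Poly(I:C) the untested gap between the genotypes was the widest, a log2 ratio of 1.45.

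Vegfc rose with both agents, less in RelA-TA-KI than in WT by the single libraries. With LPS it had 18.9 and 32.6 CPM at 3 and 8 h in RelA-TA-KI cells (13.5 CPM untreated), against 22.3 and 56.4 CPM in WT cells (9.88 CPM untreated). With Poly(I:C) at 8 h it had 18.7 CPM in RelA-TA-KI and 21.8 CPM in WT cells. The shared change was 0.82 ± 0.27 (edgeR adjusted p = 0.026) at 3 h and 1.93 ± 0.26 (5e-05) at 8 h of LPS, and 0.80 ± 0.27 (0.027) at 8 h of Poly(I:C). With library totals alone the 3 h LPS change was 0.33 (0.30) and the Poly(I:C) change 0.31 (0.33). Whether the responses differed between genotypes could not be tested with 1 library each.

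Pgf reached its highest values of this table in RelA-TA-KI cells at 8 h, 4.62 CPM with LPS and 6.74 CPM with Poly(I:C), against 2.40 and 1.33 CPM in WT cells. Untreated cells had 1.28 CPM in RelA-TA-KI and 1.44 CPM in WT, from 13 and 16 reads. The WT library at 8 h of Poly(I:C), with 9 reads, stood at its untreated level. The shared change at 8 h was 1.31 ± 0.49 (edgeR adjusted p = 0.035) with LPS and 1.44 ± 0.48 (0.025) with Poly(I:C). With library totals alone both calls were lost, at 0.62 (0.23) and 0.91 (0.088).

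Angpt1 rose with LPS and Poly(I:C) at 8 h in both genotypes, unlike its fall after TNF in RelA-TA-KI cells. At 3 and 8 h of LPS it had 62.4 and 90.4 CPM in RelA-TA-KI cells (48.8 CPM untreated), against 102 and 198 CPM in WT cells (75.1 CPM untreated). With Poly(I:C) at 8 h it had 79.5 CPM in RelA-TA-KI and 109 CPM in WT cells. The shared change at 8 h was 1.16 ± 0.14 (edgeR adjusted p = 2.3e-05) with LPS, or 0.46 (0.0051) with library totals alone. With Poly(I:C) it was 0.62 ± 0.14 (0.0033), or 0.13 (0.40) with library totals alone. At 3 h of LPS it was 0.40 ± 0.14 (0.036), a call lost without the filter on low counts (0.37, 0.073) and turned round by library totals, to -0.08 (0.59). TNF was not given in these libraries, so the 2 tables offer no test between the agents.

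Igf1 fell with both agents at 8 h. It had 250.1 CPM with LPS and 393 CPM with Poly(I:C) in RelA-TA-KI cells, where untreated cells had 568 CPM, against 197 and 335 CPM in WT cells, where untreated cells had 455 CPM. Each 8 h library lay below the untreated library of its genotype. The shared change was -1.20 ± 0.12 (edgeR adjusted p = 5.6e-06) with LPS and -0.49 ± 0.12 (0.0051) with Poly(I:C). The summed macrophage markers were at the same time higher than untreated, at 5273 (LPS) and 6165 (Poly(I:C)) against 3981 CPM in RelA-TA-KI and at 5686 and 5192 against 4535 CPM in WT cells. Of the 15 markers 7 were higher and 4 lower at 8 h of LPS (median 0.30), beside 30.4% and 32.3% of all tested genes. At 8 h of Poly(I:C) 8 were higher and 0 lower (median 0.53), beside 24.9% and 24.9%. The part of the cells with these markers in the fall of Igf1 was not tested.

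Hgf had 11.8 CPM with LPS and 12.2 CPM with Poly(I:C) at 8 h in RelA-TA-KI cells (19.6 CPM untreated), against 17.8 and 14.0 CPM in WT cells (21.0 CPM untreated). It fell by 0.63 ± 0.23 on the log2 scale with Poly(I:C) (edgeR adjusted p = 0.036), and with LPS the change was -0.47 ± 0.23 (0.091), or -1.17 (0.00045) with library totals alone. Fgf2 passed no test with LPS or Poly(I:C) under TMM. Its shared change was 0.25 ± 0.23 (0.36) at 8 h of LPS and -0.09 ± 0.23 (0.75) at 8 h of Poly(I:C), and library totals gave -0.45 (0.057) and -0.61 (0.019). In WT cells Fgf2 had 31.4 and 57.3 CPM at 3 and 8 h of LPS, while in RelA-TA-KI cells it kept between 46.4 and 58.2 CPM in all 9 conditions.

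Over the 9 conditions of this table, Vegfa was higher and Angpt1 lower in RelA-TA-KI than in WT in 9 of 9 pairs. The fitted log2 difference was 0.50 ± 0.13 for Vegfa (1.42-fold; edgeR adjusted p = 0.018) and -0.73 ± 0.07 for Angpt1 (0.602-fold; adjusted p = 2.1e-05). Thus 2 of 8 genes passed, where 15.9% of all tested genes did, 7.62% higher and 8.33% lower. Pgf (0.70 ± 0.26, adjusted p = 0.088), Fgf2 (0.31 ± 0.11, 0.07) and Igf1 (0.17 ± 0.06, 0.059) did not pass. Each genotype had 1 library per condition, so treatments and times took the place of replicates in this fit. Its p-values rest on the scatter among the 9 pairs. Spread between separate cultures or embryos was not measured, for these or any other genes tested over the 9 conditions. Pairs ranged from 0.05 to 1.45 for Vegfa and from -1.13 to -0.45 for Angpt1, the untreated pair of Angpt1 included. In untreated cells of the TNF table the genotypes differed by -0.20 ± 0.12 for Vegfa (edgeR adjusted p = 0.57) and 0.10 ± 0.15 for Angpt1 (0.82), and neither passed.

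**Figure D4:**
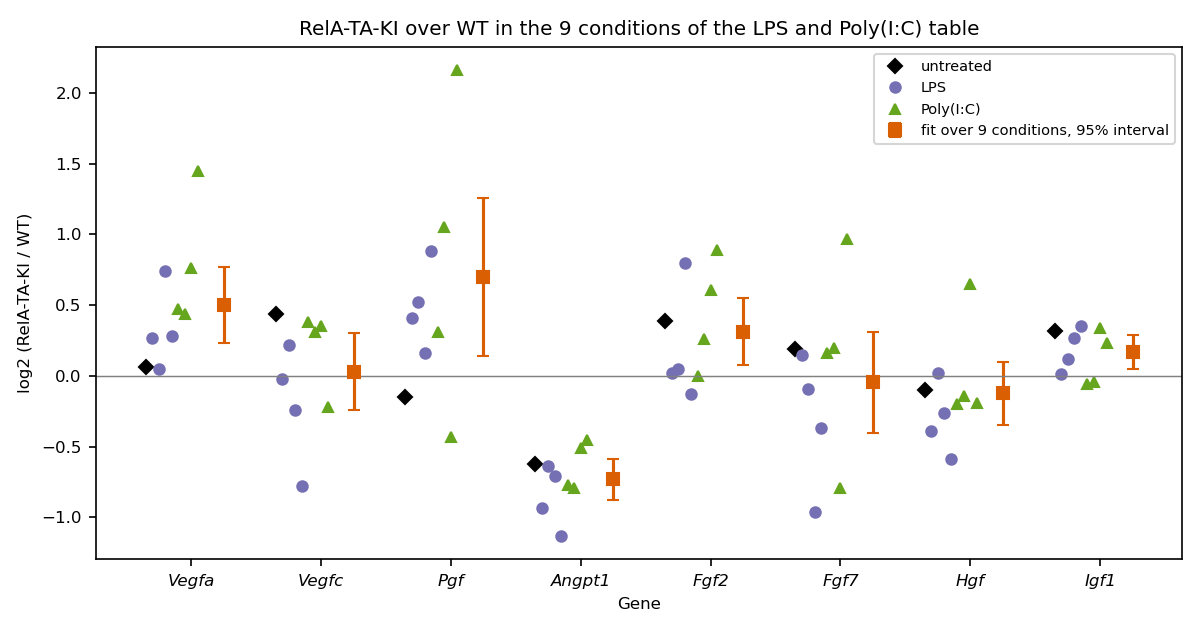
log2 ratio of RelA-TA-KI over WT (vertical axis) for each gene in the untreated pair (black), 4 LPS pairs (purple) and 4 Poly(I:C) pairs (green), from 1 library each with a prior count of 2. Orange squares give the fit over the 9 conditions with its 95% interval. All 9 Vegfa points lie above 0 and all 9 Angpt1 points below it.

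The libraries also differed in ways the genotype labels do not give. Among the LPS and Poly(I:C) libraries, Xist, the RNA of the inactive X chromosome, was at or under 1.49 CPM in all RelA-TA-KI libraries and between 251 and 438 CPM in WT libraries, and Y-linked Ddx3y was between 127 and 183 CPM in RelA-TA-KI and between 55.9 and 98.4 CPM in WT libraries. Genotype and this sex-linked difference cannot be told apart there, also for Vegfa and Angpt1 over the 9 conditions. In the TNF table Xist was between 346 and 517 CPM in RelA-TA-KI libraries and between 337 and 426 CPM in WT replicate 1, but at or under 3.90 CPM in WT replicate 2, where Ddx3y was between 128 and 160 CPM. As a check on stimulation, Nfkbia, an immediate NF-κB target, ranged from 19.0 to 184 CPM in RelA-TA-KI and from 18.8 to 626 CPM in WT libraries of the TNF table. Rela RNA was present in all libraries, between 61.8 and 306 CPM; a knock-in that alters the protein need not change it.

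Receptor genes for these ligands were called in both directions. Of 16 receptor genes listed, 15 were tested for TNF, and at 8 h 5 were higher and 3 lower in RelA-TA-KI and 3 higher and 2 lower in WT cells. Of all tested genes 21.6% were higher and 20.5% lower in RelA-TA-KI and 12% higher and 8.8% lower in WT cells. Flt1, the receptor of VEGF-A and placental growth factor, rose by 2.26 ± 0.29 (edgeR adjusted p = 2.9e-05) in RelA-TA-KI and 1.87 ± 0.29 (0.00033) in WT cells on the log2 scale. Tek, the angiopoietin receptor, fell by 2.05 ± 0.26 (3.1e-05) in RelA-TA-KI and by 1.00 ± 0.23 (0.0069) in WT cells, and Fgfr2, the receptor gene for FGF7, changed by -1.50 ± 0.10 (1.2e-07) in RelA-TA-KI and by -0.48 ± 0.10 (0.0024) in WT cells. The Fgfr2 responses differed by -1.02 ± 0.14 (0.0011). Tek is also 1 of 10 endothelial markers, of which 9 were tested: 0 were higher and 4 lower in RelA-TA-KI (median -1.17) and 0 higher and 2 lower in WT cells (median -0.90). Their summed level at 8 h was 69.9 and 62.6 CPM in RelA-TA-KI and 51.2 and 40.2 CPM in WT libraries, where untreated libraries had 88.0 and 68.2 CPM in RelA-TA-KI and 93.4 and 71.8 CPM in WT, and the part of such cells in the fall of Tek was not tested. The list's median was 0.23 in RelA-TA-KI and -0.17 in WT cells, beside -0.02 and -0.01 over all tested genes.

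With LPS at 8 h, 7 of 14 tested receptor genes were higher and 3 lower, with a median of 0.56 beside -0.06 over all tested genes, of which 30.4% were higher and 32.3% lower. With Poly(I:C) 6 were higher and 2 lower, with a median of 0.29 beside -0.04 over all tested genes, of which 24.9% were higher and 24.9% lower. Flt4, the VEGF-C receptor gene, rose by 5.59 ± 0.28 (edgeR adjusted p = 2.7e-08) with LPS and 4.88 ± 0.28 (9.8e-08) with Poly(I:C). Kdr, the main VEGF-A receptor gene, rose by 4.01 ± 0.56 (6.9e-05) and 5.33 ± 0.58 (2.1e-05). Over the 9 conditions 4 of the 14 receptor genes were higher and 3 lower in RelA-TA-KI than in WT, with a median of 0. The shares of all tested genes were 7.62% and 8.33%. Among the higher ones were Flt4 (1.05 ± 0.13, edgeR adjusted p = 0.00022) and Kdr (0.86 ± 0.26, 0.043). The summed endothelial markers, of which Kdr, Tek and Tie1 are receptors too, reached 775 CPM in RelA-TA-KI and 160 CPM in WT libraries, both at 8 h of Poly(I:C). Kdr itself made up 757 and 137 CPM of these sums. Cdh5, an endothelial junction gene, was then at 3.135 CPM in RelA-TA-KI and 1.62 CPM in WT cells. Cldn5, another such gene, had 0 reads in both libraries. These 2 markers were named after their values were seen and do not stand for the list. Of the 10 endothelial markers 7 were tested in this fit. At 8 h 3 were higher and 1 lower with LPS (median -0.10), and 2 higher and 1 lower with Poly(I:C) (median 0.10). The shares of all tested genes are those given above. The part of endothelial cells in the rise of Kdr and Flt4 was not tested.

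**Figure D5:**
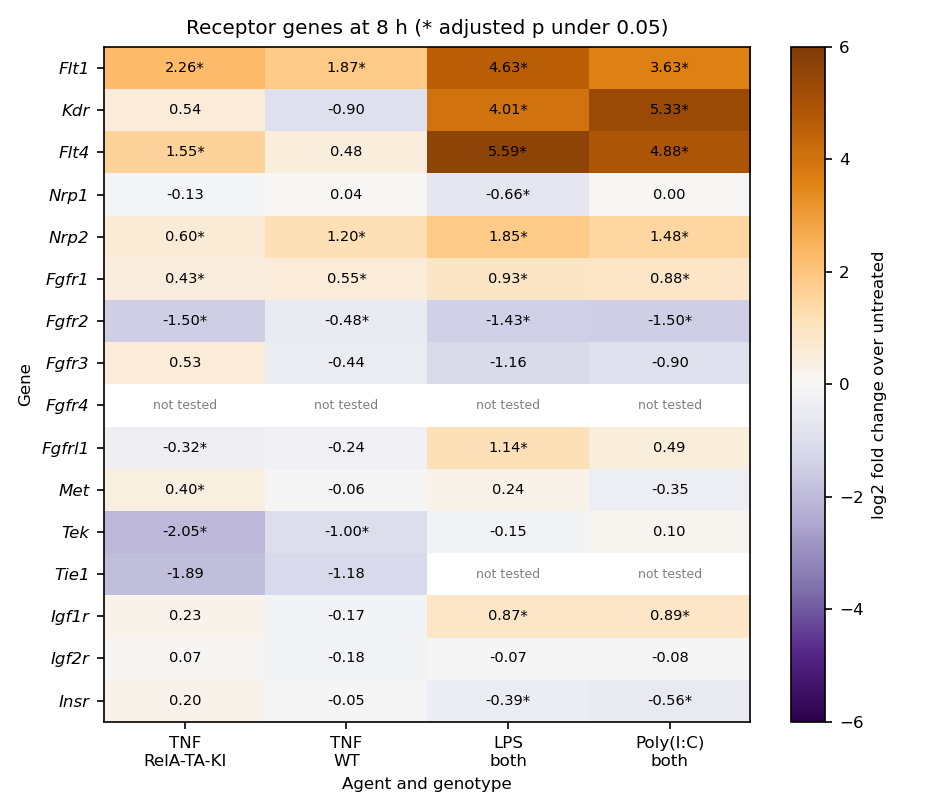
log2 fold change at 8 h over untreated (colour and printed value) for 16 receptor genes (rows) after TNF in RelA-TA-KI, TNF in WT, and LPS or Poly(I:C) fitted over both genotypes (columns). Asterisks mark an edgeR adjusted p under 0.05, and genes that did not pass the filter on low counts are marked as not tested. Flt1, Flt4 and Kdr have the largest values, up to 5.59, and Fgfr2 is negative in all 4 columns.

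Other growth factor ligands were called in both directions. Of 19 tested growth factor genes outside the 8, TNF at 8 h left 6 higher and 3 lower in RelA-TA-KI and 2 higher and 4 lower in WT cells, with medians of 0.07 and -0.21. The shares of all tested genes were 21.6% higher and 20.5% lower in RelA-TA-KI and 12% higher and 8.8% lower in WT cells. With LPS 7 were higher and 4 lower (30.4% and 32.3% of all tested genes), and with Poly(I:C) 3 were higher and 4 lower (24.9% and 24.9%), with medians of -0.13 and 0.07. Pdgfb, which encodes the pericyte mitogen PDGF-B, rose by 2.93 ± 0.17 (edgeR adjusted p = 2.5e-08) in RelA-TA-KI and 2.48 ± 0.17 (1.7e-07) in WT cells. The EGF receptor ligands Areg and Hbegf rose in RelA-TA-KI cells by 3.59 ± 0.57 (0.00018) and 3.04 ± 0.42 (6.1e-05), and their responses differed between genotypes by 4.61 ± 0.89 (0.0075) and 2.89 ± 0.58 (0.0095). Vegfd, another lymphatic growth factor gene, fell by 1.53 ± 0.19 (3e-05) in RelA-TA-KI and by 0.96 ± 0.19 (0.0025) in WT cells.

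Among 19 tested genes for binding proteins, proteases and other modulators, 7 were higher and 3 lower at 8 h of TNF in RelA-TA-KI and 6 higher and 4 lower in WT cells, with medians of 0.25 and 0.26. All tested genes had 21.6% higher and 20.5% lower in RelA-TA-KI, and 12% higher and 8.8% lower in WT cells. Of 18 tested, 10 were higher and 2 lower with LPS (30.4% and 32.3% of all tested genes) and 8 higher and 2 lower with Poly(I:C) (24.9% and 24.9%), with medians of 0.82 and 0.69. Angptl4, which encodes a secreted regulator of lipases and vessel leakage, rose by 3.23 ± 0.27 (edgeR adjusted p = 6.8e-07) in RelA-TA-KI and 2.06 ± 0.27 (9e-05) in WT cells. Plau, the urokinase gene, whose protease can activate pro-HGF, rose by 1.63 ± 0.10 (2.8e-08) in RelA-TA-KI and 1.17 ± 0.09 (9.5e-07) in WT cells. Igfbp4, which encodes a binding protein that holds IGF-1, fell by 1.49 ± 0.26 (0.0004) in RelA-TA-KI and by 0.85 ± 0.26 (0.029) in WT cells.

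Vegfa is also a known target of the hypoxia pathway, and 14 other hypoxia-inducible genes were tested. At 8 h of TNF 4 were higher and 3 lower in RelA-TA-KI, where 21.6% and 20.5% of all tested genes were, and 3 higher and 1 lower in WT cells, where 12% and 8.8% were, with medians of 0.15 and 0.00. At 8 h of LPS 9 were higher and 0 lower (median 1.47), beside 30.4% and 32.3% of all tested genes. After Poly(I:C) 4 were higher and 2 lower (median 0.37), beside 24.9% and 24.9%. Hk2, which encodes a hexokinase, rose by 2.03 ± 0.20 (edgeR adjusted p = 2.4e-06) in RelA-TA-KI and 0.81 ± 0.19 (0.0081) in WT cells with TNF, and its responses differed by 1.23 ± 0.27 (0.016). Ddit4, an mTORC1 inhibitor gene, fell by 0.68 ± 0.11 (0.00025) in RelA-TA-KI cells, and its responses differed by -0.70 ± 0.15 (0.016). Over the 9 conditions 0 of the 14 genes were higher and 2 lower in RelA-TA-KI than in WT (median -0.25), beside 7.62% and 8.33% of all tested genes. Car9, a carbonic anhydrase gene, was among the lower ones, with a log2 difference of -1.92 ± 0.11 (edgeR adjusted p = 4.4e-07). The part of the hypoxia pathway in the Vegfa values was not tested.

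The genes most like each member over the 10 group means of the TNF table were found among 1980 genes with a mean of at least 5 CPM and a range of at least 1 log2 unit, as a description without a test. Vegfc ran with Gsap (Pearson r = 0.991) and Col5a3 (0.985), and Fgf7 with Sbno2 (0.983) and Zswim4 (0.98). Angpt1 ran with Rspo3 (0.978) and Celf5 (0.976), Hgf with Ednra (0.981) and Trim66 (0.964), and Vegfa with Hbegf (0.946). Igf1 ran with Rab7b (0.976) and Laptm5 (0.972), the second of which is 1 of the 15 macrophage markers. Fgf2 (Krt7, 0.912, and Mtcl1, 0.869) and Pgf (Hapln1, 0.758, and Kdr, 0.739) had looser matches. The 10 means share libraries, scaling and the same time course.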

How the data were processed

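Reads were trimmed (cutadapt 1.9.1), mapped to mm10 (STAR) and assigned to genes (featureCounts 1.4.6) before deposit, per the submitters' processing notes. The strand setting and annotation release are not given in the sources used here. What the authors deposited are whole-number read counts, not normalised, in a table for TNF and another for LPS and Poly(I:C). All 38 columns were used and 0 were left out. Libraries held 6715022 to 9590932 counts in the TNF table and 7021799 to 9431334 in the other.

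Counts were fitted with edgeR 4.0.16 in R 4.3.3 (TMM factors, filterByExpr, quasi-likelihood F test, Benjamini-Hochberg adjustment over all tested genes, threshold 0.05). The TNF table (13843 genes tested) had a mean per group over all 20 libraries. The LPS and Poly(I:C) table (13759 genes tested) had additive terms for genotype and condition over 18 libraries, which leaves the genotype difference over conditions as its spread and assumes that it is shared. CPM use TMM-scaled library sizes. Standard errors are the log2 change over the square root of F. Intervals cover 95%. The fits were tested on simulated data.

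Replicate numbers pair libraries within a genotype: deviations from group means correlated by 0.161 to 0.529 in 20 of 20 pairs of groups, against 0.00558 to 0.338 between genotypes, where 24 of 25 exceeded 0.1. Alternatives were DESeq2 1.42.0, RLE factors, no filter, replicate blocks and only the groups compared. Each library of the TNF table, or each condition of the other table, was also left out. Library totals alone were added after seeing the data. From each list at most 3 called genes per direction are named, by size of change, and the 2 genes most like each member, of which 1 is not reported here; checks of label and treatment and marker genes (Lyz2, Cdh5, Cldn5, Xist, Ddx3y) were named outside this rule, after their values were seen. The members, lists and tests were chosen with earlier results of these data known. Gene positions and overlaps come from GENCODE on GRCm38 and promoter windows from RefSeq on GRCm38.p6.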

Additional observations from a re-analysis of the deposited data

Results flagged for a closer look

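Without a replicate block, the responses of 3 genes to 8 h of TNF differed between RelA-TA-KI and WT cells. The difference itself was tested (edgeR's quasi-likelihood test, adjusted over all tested genes, 2 libraries per group). With the replicate block within genotype more differences passed, that of Fgf2 at 8 h among them. Without the block the difference of the log2 changes, RelA-TA-KI minus WT, was 0.93 for Vegfa, 1.71 for Pgf and -2.52 for Angpt1. Vegfa was higher than untreated in 2 of 2 RelA-TA-KI libraries. Angpt1 was lower than untreated in 2 of 2 RelA-TA-KI libraries, and its WT libraries had 41.2 and 50.5 CPM, against 40.8 and 44.8 CPM untreated. For Pgf both 8 h libraries lay above the untreated ones in RelA-TA-KI and below them in WT, at 2.18 to 6.87 CPM. The Pgf call, unlike those of Vegfa and Angpt1, was lost without some single libraries and with only the groups compared. No group had enough libraries for a search for single outlying values.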

How the results depend on the processing

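Counts of calls changed by 1.5 times or more under 4 kinds of alternative, and also when some single libraries or conditions were left out, as given below. Of 32 WT responses to TNF 7 passed, against 12 without the filter on low counts, 13 with a replicate block shared by both genotypes and 14 with a replicate block within genotype. Of 32 RelA-TA-KI responses 12 passed, and 18 in each of those 3 fits. Of 40 RelA-TA-KI against WT contrasts 7 passed, against 14 without the filter, 15 with the shared replicate block and 3 when only the groups compared were fitted. Of 32 differences of responses 3 passed, against 5 without the filter, 7 with the shared replicate block and 8 with the block within genotype. The cause was not tested. Shares of all tested genes were not counted under any of these alternatives. With the shared block Igf1 was higher in RelA-TA-KI than in WT at all 5 times. Leaving out each library of the TNF table gave 8 to 13 calls for RelA-TA-KI responses and 5 to 8 for WT responses. It gave 4 to 7 for the contrasts of genotypes (4 without WT 8 h replicate 1) and 2 to 3 for the differences. In the other table single libraries were not left out. Leaving out each condition, with both genotypes, gave 3 to 10 calls for LPS and 0 to 7 for Poly(I:C). The lowest of these counts are those without the 8 h condition, whose own contrast then has no value, and no call at a remaining time was lost. For RelA-TA-KI against WT over the 9 conditions, leaving out each condition gave 2 to 3 calls. Library totals alone turned the Angpt1 change at 3 h of LPS to -0.08. The calls at 8 h of TNF for Fgf7 and Vegfc in both genotypes, and for Vegfa and Angpt1 in RelA-TA-KI cells and in the differences of responses, kept their direction and passed under every alternative run. Pgf, at 5 to 61 reads per library, is limited by depth. With 1 library per genotype and condition, differences between LPS or Poly(I:C) responses of the genotypes could not be tested.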
